A study of Sus scrofa with 9 samples.

Results

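To examine the carriers that move amino acids, neurotransmitters and monocarboxylates across membranes, every gene was taken whose symbol placed it in the solute carrier families SLC1, SLC3, SLC6, SLC7, SLC16, SLC36, SLC38 or SLC43, leaving out *SLC7A2* and *SLC7A11*. There were 63 such members among 16562 genes, and 37 of them had enough counts to be tested, among 12721 tested genes. The rule reads symbols alone, but members were chosen with earlier results of these data known. *SLC7A6OS* met it by its name although it encodes no carrier, and 8 further carriers of these families in the RefSeq table of the pig, *SLC7A5* among them, were not analysed here. The cells were primary preadipocytes, fibroblast-like precursors of fat cells, from the back fat of a female Rongchang piglet, induced to differentiate with insulin, IBMX and dexamethasone and labelled day 8. The 9 libraries fell into 3 groups of 3, which received an expression plasmid for the long non-coding RNA lnc*PLAAT3*-AS (overexpression; genotype label Overexpression), an siRNA directed at this RNA (siRNA; genotype label inhibition), or a control (genotype label WT) that both comparisons used. The control is called blank in the series design and a negative control in the study's text, and cells given an empty plasmid are not analysed here. All cell experiments used cells of the same pig and were repeated 3 times, so the p-values measure at most the spread between cultures of 1 animal. Whether the 3 libraries of a group came from these repeats is not stated in the sources used here.

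Cells take up amino acids through carriers that either exchange one amino acid for another or use the gradients of sodium or protons to accumulate them. Some carriers work as pairs of a light chain, which moves the amino acid, and a glycoprotein heavy chain, which brings it to the cell surface, and others sit in the lysosome and report its amino acids to the growth-controlling kinase mTORC1. In fat cells, glutamine, serine and branched-chain amino acids feed lipid and nucleotide synthesis, and the monocarboxylate carriers of the SLC16 family move lactate and pyruvate, which link glycolysis to the rest of the tissue.

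Summed counts per library were 17276056 to 17495882 in overexpression libraries, 16724902 to 17130200 in siRNA libraries and 17099182 to 17434444 in control libraries. The overexpression libraries differed from each other by little more than counting noise, with a chi-square per gene of 1.41 to 1.59 for pairs of libraries, against 5.07 to 10 among siRNA libraries and 5.4 to 13.7 among control libraries. No level of lnc*PLAAT3*-AS was analysed here to check the labels. The labels call the cells adipocytes. Of the adipocyte markers, *LPL*, a lipase, averaged 84 CPM in overexpression cells, 418 CPM in siRNA cells and 65.1 CPM in control cells (counts scaled to a common library size with TMM factors), and *FABP4*, a fatty acid binding protein, averaged 13.5, 6.25 and 7.83 CPM in these groups. *ADIPOQ*, which encodes the fat-cell hormone adiponectin, had 9 counts over the overexpression libraries, 0 over the siRNA libraries and 11 over the control libraries. *COL1A1*, a chain of the fibroblast collagen I, averaged 64832, 16802 and 48646 CPM in these groups. Most preadipocyte and fibroblast markers went the other way: of 10, 6 were higher and 4 lower in siRNA cells. In overexpression cells 2 were higher and 8 lower. In bulk RNA, fewer cells of a type and less RNA per cell cannot be told apart.

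Levels were compared between carriers as FPKM, which accounts for gene length. *SLC16A3* (MCT4), the exporter of lactate, had 150, 154 and 156 FPKM in overexpression libraries, 228, 247 and 242 FPKM in siRNA libraries and 145, 162 and 183 FPKM in control libraries. *SLC1A5* (ASCT2), which exchanges glutamine for other neutral amino acids, had 198, 198 and 193 FPKM in overexpression libraries, 130, 136 and 147 FPKM in siRNA libraries and 200, 205 and 204 FPKM in control libraries. All 3 siRNA libraries were thus the highest for the lactate exporter and the lowest for the glutamine exchanger, with no overlap with either other group. *SLC38A5* (SNAT5), a carrier of glutamine, asparagine and serine, had 102, 103 and 106 FPKM in overexpression libraries, 39.5, 38 and 47.3 FPKM in siRNA libraries and 130, 128 and 120 FPKM in control libraries, and the 3 groups did not overlap. *SLC3A2* (CD98), the heavy chain that partners several SLC7 light chains, had 79.6, 81.6 and 77.4 FPKM in overexpression libraries, 74.7, 77.1 and 81.9 FPKM in siRNA libraries and 89, 90.2 and 96.3 FPKM in control libraries. *SLC6A9* (GLYT1), which takes up glycine, had 74, 74.8 and 77.7 FPKM in overexpression libraries, 68.8, 68.1 and 74.3 FPKM in siRNA libraries and 83.1, 84.3 and 81.5 FPKM in control libraries. For these last 2 carriers the control libraries were all above the libraries of both other groups, whose ranges overlapped in FPKM.

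These 5 carriers, which had the highest mean FPKM of the members, held 66.7% of the summed FPKM of all 63 members in overexpression cells, 67% in siRNA cells and 72.2% in control cells. The summed FPKM of the members was 913 ± 7.33 in overexpression cells, 845 ± 30.8 in siRNA cells and 926 ± 5.33 in control cells (SD, n = 3 each). The SLC16 family together reached 199 ± 2.06 FPKM in overexpression cells, 266 ± 8.3 FPKM in siRNA cells and 202 ± 16.6 FPKM in control cells. The SLC1 family reached 216 ± 2.28, 152 ± 8.63 and 226 ± 2.15 FPKM in these groups, and the SLC38 family 236 ± 7.55, 179 ± 13.4 and 227 ± 12.2 FPKM. The siRNA libraries therefore held more SLC16 transcript per length and less SLC1 and SLC38 transcript. These sums weigh abundant members most. *SLC16A3* averaged 239 FPKM in siRNA and 164 FPKM in control cells, and *SLC38A5* averaged 41.6 and 126 FPKM. By the test given below, 1 of 9 tested SLC16 members was higher in siRNA cells and 5 were lower. Of 7 tested SLC38 members 3 were higher and 2 lower, and of 5 tested SLC1 members 0 were higher and 4 lower. Over the 22 members with at least 10 CPM, the median coefficient of variation of the CPM level between libraries was 2.56% in overexpression cells, 4.72% in siRNA cells and 6.53% in control cells.

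**Figure D1:**
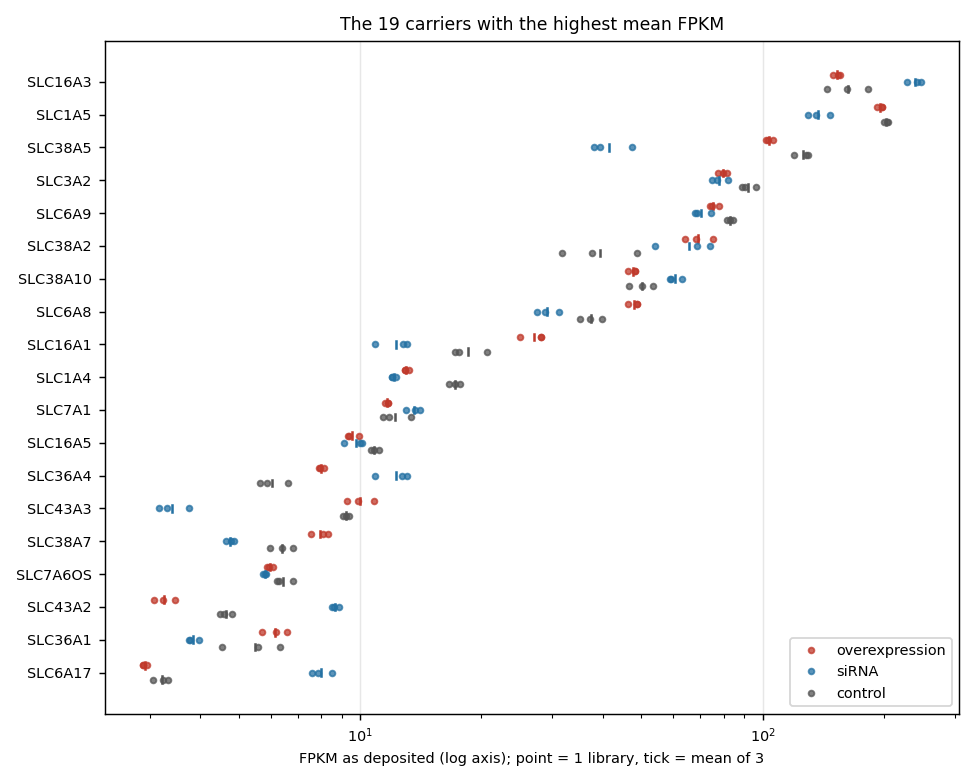
FPKM (log axis) of the 19 members with the highest mean FPKM, with 1 point per library and a tick at the mean of 3 for overexpression, siRNA and control cells. *SLC16A3* lies at 228 to 247 FPKM in siRNA libraries, above all other libraries, while *SLC38A5* lies at 38 to 47.3 FPKM there, below all other libraries.

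Differences were tested on the counts with edgeR's quasi-likelihood test, and every adjusted p given is Benjamini-Hochberg adjusted over all 12721 tested genes. In overexpression cells against control cells, 1 of 37 tested members was at least 2-fold higher at an adjusted p under 0.05 (2.7%, against 2.61% of all tested genes) and 0 were at least 2-fold lower (against 1.89% of all tested genes). At an adjusted p under 0.05 alone, 11 members were higher (29.7%, against 23.9% of all tested genes), 8 were lower (21.6%, against 23.4%) and 18 did not pass. These shares lie close to those of all genes, and the median log2 fold change of the 37 members was 0.10, against 0.01 over all tested genes.

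In siRNA cells against control cells, 3 members were at least 2-fold higher (8.11%, against 7.67% of all tested genes) and 8 were at least 2-fold lower (21.6%, against 7.52% of all tested genes). Of these, *SLC7A4*, *SLC16A9* and *SLC6A2* passed the filter only through a group in which they were high. A stricter filter on low counts, which left them out, gave 2 higher and 6 lower of 34 tested members. The matching shares of all genes are not given here. With the adjusted p alone, 11 members were higher (29.7%, against 29.5% of all tested genes), 17 were lower (45.9%, against 29.9%) and 9 did not pass. The share of carriers that rose was close to that of all genes, and the share that fell was above it. The median log2 fold change was -0.18 for the members and -0.00 for all tested genes, and the median absolute log2 fold change was 0.51 and 0.33. By counts alone, 30 of the 37 members had no overlap between the CPM ranges of siRNA and control libraries (81.1%, against 61.3% of all tested genes), and 24 had none between overexpression and control libraries (64.9%, against 57.1%). The 2 comparisons share the control libraries.

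**Figure D2:**
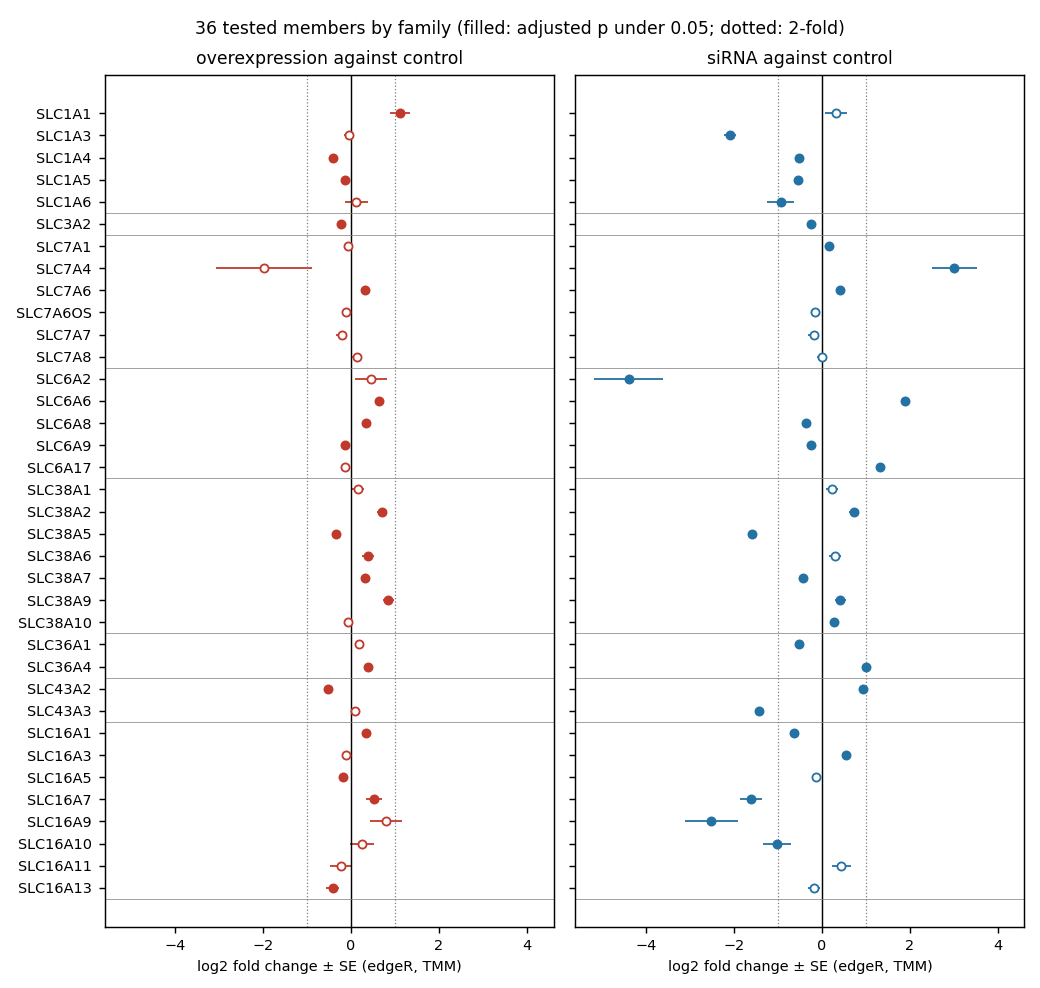
Log2 fold change ± SE of 36 of the 37 tested members, grouped by family, for overexpression against control (left) and siRNA against control (right), with filled points at an adjusted p under 0.05 and dotted lines at 2-fold. In the left panel only *SLC1A1* is filled beyond a dotted line, and in the right panel 3 filled points lie beyond the upper line and 7 beyond the lower one.

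The SLC1 family holds the carriers of acidic amino acids and the exchangers of small neutral ones. *SLC1A1* (EAAT3), a sodium-driven carrier of glutamate, aspartate and cysteine, had 3.11, 3.73 and 3.71 CPM in overexpression libraries, 1.79, 1.86 and 2.45 CPM in siRNA libraries and 2.24, 1.05 and 1.57 CPM in control libraries. All overexpression libraries were above all others, and the siRNA and control ranges overlapped. *SLC1A1* was the 1 member at least 2-fold higher in overexpression cells than in control cells (log2 fold change 1.11, SE 0.221, adjusted p = 0.000359), and it did not pass in siRNA cells (log2 fold change 0.32, adjusted p = 0.265). Without control replicate 2, the lowest library, its log2 fold change in overexpression cells was 0.88 (adjusted p = 0.00445), which is under 2-fold.

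*SLC1A3* (EAAT1, or GLAST), the glutamate carrier best known from glial cells, had 11.3, 11.2 and 12.2 CPM in overexpression libraries, 2.98, 3.36 and 2.1 CPM in siRNA libraries and 12.4, 12.4 and 11 CPM in control libraries. The siRNA libraries were the lowest by a wide margin and the other groups overlapped. *SLC1A3* fell in siRNA cells (log2 fold change -2.08, SE 0.138, adjusted p = 2.81e-11), a 4.24-fold lower level than in control cells. *SLC1A6* (EAAT4), the glutamate carrier of cerebellar neurons, was lower in siRNA cells at under 2-fold, with 0.748 ± 0.323 CPM in siRNA cells and 1.45 ± 0.195 CPM in control cells (log2 fold change -0.94, adjusted p = 0.0109). The neutral exchangers were more abundant. *SLC1A5* averaged 462 ± 7.64 CPM in overexpression cells, 348 ± 13.6 CPM in siRNA cells and 510 ± 21 CPM in control cells. It fell in siRNA cells (log2 fold change -0.55, SE 0.0577, adjusted p = 4.56e-08), and its small decrease in overexpression cells (log2 fold change -0.14, adjusted p = 0.049) lay at the threshold: it did not pass without control replicate 2 (-0.13, adjusted p = 0.129), control replicate 3 (-0.11, adjusted p = 0.11), overexpression replicate 1 (-0.15, adjusted p = 0.0964), 2 (-0.14, adjusted p = 0.122) or 3 (-0.13, adjusted p = 0.163), or siRNA replicate 1 (-0.14, adjusted p = 0.0593), nor without the filter (adjusted p = 0.0635) or with limma on log2(FPKM + 1) (-0.05, adjusted p = 0.47). *SLC1A4* (ASCT1), which exchanges serine, alanine and cysteine, was lower in both groups, with 65 ± 0.723 CPM in overexpression cells, 60.6 ± 1.79 CPM in siRNA cells and 86.1 ± 1.15 CPM in control cells (log2 fold changes -0.40 and -0.51 against control).

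The SLC3 and SLC7 families hold the heavy chains, their light chains and the carriers of cationic amino acids. *SLC3A2* was lower in both groups, at 139 ± 3.63 CPM in overexpression cells, 137 ± 4.67 CPM in siRNA cells and 162 ± 9.85 CPM in control cells, with log2 fold changes of -0.22 (adjusted p = 0.00425) and -0.24 (adjusted p = 0.00175). Of its light chains, *SLC7A6* (y+LAT2), which exports cationic amino acids in exchange for neutral ones, was higher in both groups, with log2 fold changes of 0.32 in overexpression cells and 0.41 in siRNA cells. The light chains *SLC7A7* (y+LAT1) and *SLC7A8* (LAT2) did not pass in either group, with log2 fold changes between -0.21 and 0.13. *SLC7A1* (CAT1), the main carrier of arginine and lysine in dividing cells, averaged 70.8 ± 0.35 CPM in overexpression cells, 83.1 ± 1.45 CPM in siRNA cells and 74.4 ± 4.91 CPM in control cells and passed in siRNA cells (log2 fold change 0.16, adjusted p = 0.0261).

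*SLC7A4*, which resembles the cationic carriers in sequence, had 0, 1 and 0 counts in overexpression libraries, 15, 16 and 11 counts in siRNA libraries and 2, 1 and 2 counts in control libraries. It was detected mainly in the siRNA libraries and entered the test only through them, since overexpression and control cells lay under the level of 0.584 CPM that the filter asked for. The ratio of siRNA to control counts, scaled to library size, was 8.58 with a counting interval of 3.4 to 27.8 at 95% and, since the siRNA libraries alone brought the gene into the test, it had to differ there. The interval covers counting error only.

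The SLC6 family includes carriers of glycine, taurine, creatine and amine transmitters. *SLC6A6* (TAUT), which takes up taurine, had 15.6, 15.3 and 15.5 CPM in overexpression libraries, 37.1, 38 and 35.9 CPM in siRNA libraries and 8.89, 11.9 and 9.04 CPM in control libraries. The 3 groups did not overlap, with siRNA highest and control lowest. *SLC6A6* rose 3.72-fold in siRNA cells (log2 fold change 1.89, SE 0.0946, adjusted p = 2.48e-13) and 1.56-fold in overexpression cells (log2 fold change 0.64, SE 0.102, adjusted p = 3.79e-05). *SLC6A17* (NTT4), known from synaptic vesicles of neurons, where it carries neutral amino acids, had 17.4, 17.7 and 17.3 CPM in overexpression libraries, 45.6, 48.4 and 49.7 CPM in siRNA libraries and 19.6, 18.3 and 19.8 CPM in control libraries. Every siRNA library stood above every other library, and *SLC6A17* was 2.49-fold higher in siRNA cells than in control cells (log2 fold change 1.32, SE 0.0708, adjusted p = 8.76e-13).

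*SLC6A8*, the creatine carrier, moved in opposite directions in the 2 comparisons, at 88.8 ± 2.74 CPM in overexpression cells, 54.7 ± 4.57 CPM in siRNA cells and 70 ± 3.09 CPM in control cells, with log2 fold changes of 0.34 (adjusted p = 0.000213) and -0.36 (adjusted p = 0.000105). *SLC6A9*, the glycine carrier, averaged 229 ± 5.12 CPM in overexpression cells, 214 ± 5.41 CPM in siRNA cells and 252 ± 3.88 CPM in control cells. It was lower in siRNA cells (log2 fold change -0.24, SE 0.0543, adjusted p = 0.000738). Its decrease in overexpression cells (log2 fold change -0.14, adjusted p = 0.0445) did not pass without control replicate 2 (-0.12, adjusted p = 0.133), control replicate 3 (-0.14, adjusted p = 0.0518), overexpression replicate 1 (-0.12, adjusted p = 0.15), 2 (-0.13, adjusted p = 0.137) or 3 (-0.15, adjusted p = 0.074), or siRNA replicate 1 (-0.14, adjusted p = 0.0589), nor without the filter (adjusted p = 0.0666). *SLC6A2* (NET), which takes up noradrenaline and no amino acid, had 11, 13 and 16 counts in overexpression libraries, 1, 0 and 0 counts in siRNA libraries and 8, 14 and 7 counts in control libraries. It was nearly absent from the siRNA libraries and entered the test through the overexpression libraries, since siRNA and control cells were under the level of the filter. The ratio of siRNA to control counts was 0.0352, with a counting interval of 0.000863 to 0.213.

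**Figure D3:**
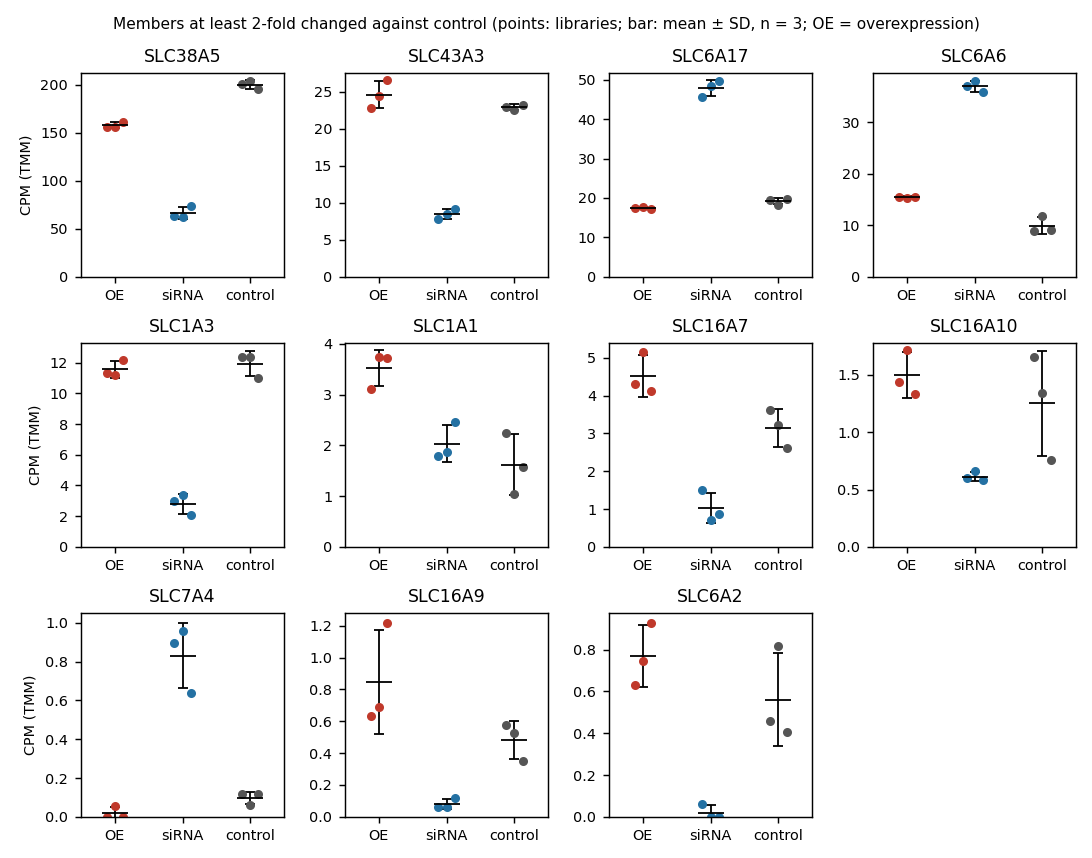
CPM (TMM scaled) of 11 of the 12 members at least 2-fold changed against control, with 1 point per library and bars at the mean ± SD of 3 for overexpression (OE), siRNA and control cells. The siRNA points lie above both other groups for *SLC6A17*, *SLC6A6* and *SLC7A4*, and below both for 7 members from *SLC38A5* to *SLC6A2*, while for *SLC1A1* the overexpression points lie highest at 3.11 to 3.73 CPM.

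The sodium-coupled neutral carriers of the SLC38 family gave the most abundant of the large decreases. *SLC38A5* had 156, 156 and 161 CPM in overexpression libraries, 63.6, 62.1 and 73.4 CPM in siRNA libraries and 201, 204 and 195 CPM in control libraries. The groups did not overlap, and both manipulated groups were under control. In siRNA cells *SLC38A5* was 3.01-fold lower than in control cells (log2 fold change -1.59, SE 0.0647, adjusted p = 7.25e-15), and in overexpression cells 1.27-fold lower (log2 fold change -0.34, SE 0.0617, adjusted p = 0.00014).

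*SLC38A2* (SNAT2), the carrier that cells make in response to amino acid shortage, went the other way; it was picked after its values were seen. It had 252, 261 and 284 CPM in overexpression libraries, 279, 232 and 300 CPM in siRNA libraries and 189, 161 and 139 CPM in control libraries. The control libraries were the lowest, and overexpression and siRNA libraries overlapped. *SLC38A2* rose in both groups, with log2 fold changes of 0.70 (SE 0.114, adjusted p = 0.000334) in overexpression cells and 0.73 (SE 0.114, adjusted p = 0.000133) in siRNA cells. *SLC38A1* (SNAT1), its close relative, did not pass in either group (log2 fold changes 0.15 and 0.23).

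Of the lysosomal members, *SLC38A9*, the arginine sensor that signals to mTORC1, averaged 10.4 ± 0.444 CPM in overexpression cells, 7.78 ± 1.45 CPM in siRNA cells and 5.82 ± 0.382 CPM in control cells, and rose in both groups (log2 fold changes 0.84, adjusted p = 1.86e-05, and 0.42, adjusted p = 0.00966). *SLC38A7*, which exports glutamine from the lysosome, was higher in overexpression cells (log2 fold change 0.31) and lower in siRNA cells (log2 fold change -0.43). *SLC36A1* (PAT1), a proton-coupled carrier of small neutral amino acids at the lysosome, was lower in siRNA cells (log2 fold change -0.51, adjusted p = 8.7e-05) and did not pass in overexpression cells (log2 fold change 0.17). *SLC36A4* (PAT4), a carrier of proline and tryptophan, was higher in both groups, at 19 ± 0.847 CPM in overexpression cells, 28.9 ± 1.72 CPM in siRNA cells and 14.5 ± 1.04 CPM in control cells. Its log2 fold change in siRNA cells, 0.99 (SE 0.0834, adjusted p = 1.59e-09), lay just under 2-fold and just over it without control replicate 1 (1.03) or siRNA replicate 2 (1.04). *SLC38A10*, of which the transport is less well described, averaged 212 ± 13 CPM in siRNA cells and 176 ± 14.1 CPM in control cells (log2 fold change 0.27, adjusted p = 0.00116). *SLC38A6* passed in overexpression cells (log2 fold change 0.38, adjusted p = 0.027).

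In the SLC43 family, the 2 tested members changed in opposite directions in siRNA cells. *SLC43A3*, which carries purine nucleobases and not amino acids, had 22.9, 24.4 and 26.6 CPM in overexpression libraries, 7.88, 8.45 and 9.14 CPM in siRNA libraries and 23, 22.6 and 23.3 CPM in control libraries. It was 2.7-fold lower in siRNA cells (log2 fold change -1.43, SE 0.0922, adjusted p = 1.77e-11), and overexpression and control libraries overlapped. *SLC43A2* (LAT4), a uniporter of branched-chain amino acids and phenylalanine, averaged 14.2 ± 0.773 CPM in overexpression cells, 39.2 ± 2.04 CPM in siRNA cells and 20.6 ± 1.56 CPM in control cells. *SLC43A2* rose in siRNA cells (log2 fold change 0.93, SE 0.0777, adjusted p = 1.32e-09) and fell in overexpression cells (log2 fold change -0.53, SE 0.0856, adjusted p = 3.9e-05).

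Among the lactate carriers of the SLC16 family, siRNA cells had more of the exporter and less of the other 2 tested forms. *SLC16A3* averaged 302 ± 5.95 CPM in overexpression cells, 475 ± 23.7 CPM in siRNA cells and 326 ± 43.9 CPM in control cells. It rose in siRNA cells (log2 fold change 0.55, SE 0.0753, adjusted p = 2.47e-06) and did not pass in overexpression cells (log2 fold change -0.11, adjusted p = 0.25). *SLC16A1* (MCT1), which moves lactate in either direction, averaged 83.1 ± 0.0815 CPM in overexpression cells, 42.8 ± 3.23 CPM in siRNA cells and 66.3 ± 5.38 CPM in control cells, and rose in overexpression cells (log2 fold change 0.33, adjusted p = 0.000548) and fell in siRNA cells (log2 fold change -0.63, adjusted p = 1.24e-07). *SLC16A7* (MCT2), a high-affinity carrier of pyruvate and lactate, had 4.31, 5.16 and 4.12 CPM in overexpression libraries, 1.49, 0.719 and 0.874 CPM in siRNA libraries and 3.61, 3.21 and 2.62 CPM in control libraries. The 3 groups did not overlap, and *SLC16A7* was 3.05-fold lower in siRNA cells (log2 fold change -1.61, SE 0.242, adjusted p = 7.44e-06) and 1.44-fold higher in overexpression cells (log2 fold change 0.52, SE 0.183, adjusted p = 0.0236).

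Other members of this family carry other substrates. *SLC16A10* (TAT1), a carrier of aromatic amino acids, had 1.44, 1.72 and 1.33 CPM in overexpression libraries, 0.597, 0.659 and 0.582 CPM in siRNA libraries and 1.66, 1.34 and 0.758 CPM in control libraries. The siRNA libraries were below all others, but the lowest control library was near them. Its decrease in siRNA cells (log2 fold change -1.03, SE 0.319, adjusted p = 0.00874) was -0.78 (adjusted p = 0.0637) without control replicate 1, -0.98 (adjusted p = 0.0304) without control replicate 2 and -0.99 (adjusted p = 0.0283) without siRNA replicate 3. The counts of *SLC16A10* were not whole in any library, so some of its reads may be shared with another gene and its values are uncertain.

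*SLC16A9*, reported in human genetics to affect carnitine levels, had 11, 12 and 21 counts in overexpression libraries, 1, 1 and 2 counts in siRNA libraries and 10, 9 and 6 counts in control libraries. It was lowest in siRNA libraries and entered the test through the overexpression libraries, the other groups being under the level of the filter. The ratio of siRNA to control counts was 0.163, with a counting interval of 0.0414 to 0.473. *SLC16A5* and *SLC16A13* were lower in overexpression cells (log2 fold changes -0.19 and -0.42, adjusted p = 0.0368 and 0.0262) and did not pass in siRNA cells, and *SLC16A11* did not pass in either group.

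Overexpression and siRNA cells were also compared directly, without the control libraries as a reference. In this comparison 9 members were at least 2-fold higher in overexpression cells than in siRNA cells (24.3%, against 9.54% of all tested genes) and 4 were at least 2-fold lower (10.8%, against 9.17%). At an adjusted p under 0.05 alone, 16 members were higher (43.2%, against 32.8% of all tested genes), 9 were lower (24.3%, against 33.9%) and 12 did not pass. The members higher by at least 2-fold included *SLC38A5*, *SLC43A3*, *SLC1A3*, *SLC1A6*, *SLC16A7*, *SLC16A10*, *SLC16A9* and *SLC6A2*, and those lower were *SLC43A2*, *SLC6A17*, *SLC6A6* and *SLC7A4*. *SLC16A9* and *SLC6A2* had entered the test through the overexpression libraries and *SLC7A4* through the siRNA libraries, so these 3 had to differ here. The stricter filter left 7 higher and 3 lower of 34 tested members, with no matching share of all genes given here. *SLC1A6* was the member nearest the 2-fold limit among these, at a log2 fold change of 1.06 (adjusted p = 0.00368). It fell short of that limit, leaving 8 such members, without overexpression replicate 3, siRNA replicate 1 or siRNA replicate 2.

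There were 5 members that passed in opposite directions against control. The direct difference of such a member spans both changes, so it passes as a matter of course and adds no support. The share of all genes with this pattern is not given here. Overexpression cells were above siRNA cells for *SLC16A7* (log2 fold change 2.13, SE 0.227, adjusted p = 4.68e-08), *SLC16A1* (0.96, SE 0.07, adjusted p = 1.18e-10), *SLC38A7* (0.74, SE 0.0804, adjusted p = 6.51e-08) and *SLC6A8* (0.70, SE 0.0661, adjusted p = 7.3e-09). They were below siRNA cells for *SLC43A2* (log2 fold change -1.46, SE 0.0812, adjusted p = 1.12e-12). Other members had moved to the same side of control in both groups, and some of these did not differ by the test when the groups were set against each other: *SLC38A2* at -0.03 (SE 0.112, adjusted p = 0.841), *SLC3A2* at 0.01 (SE 0.0594, adjusted p = 0.842), *SLC1A4* at 0.10 (SE 0.0574, adjusted p = 0.126) and *SLC6A9* at 0.10 (SE 0.0544, adjusted p = 0.102). *SLC38A5* and *SLC6A6* also lay on 1 side of control in both groups, but with a larger shift in siRNA cells, so that the direct log2 fold changes were 1.25 (adjusted p = 3.6e-13) and -1.26 (adjusted p = 7.2e-11).

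The remaining 26 members were under the filter, with 1 to 82 counts summed over the 9 libraries, a median of 14.5 and at most 0.37 FPKM in any library. Among them *SLC6A4* (SERT), the serotonin carrier, had 6, 2 and 2 counts in overexpression libraries, 2, 2 and 6 counts in siRNA libraries and 27, 27 and 8 counts in control libraries. The control libraries were highest, with control replicate 3 well under the other 2, and the ratios to control were 0.16 (counting interval 0.0732 to 0.315) in overexpression cells and 0.165 (0.0753 to 0.324) in siRNA cells. When the filter was dropped, *SLC6A4* passed in both comparisons (log2 fold changes -2.60, adjusted p = 0.000113, and -2.56, adjusted p = 7.96e-05).

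*SLC6A5* (GLYT2), the glycine carrier of inhibitory neurons, had 10, 13 and 1 counts in siRNA libraries and 0 in every overexpression and control library. With control set at a floor of 3 counts summed over its libraries, siRNA cells were 8.17-fold higher. This value leaves out the counting error of the siRNA libraries. Nearly all of these counts came from 2 of the 3 siRNA libraries. *SLC7A10* (Asc-1) is a carrier of small neutral amino acids used as a surface marker of white adipocytes. It had 4, 3 and 9 counts in overexpression libraries, 0 in every siRNA library and 3, 2 and 4 counts in control libraries. With siRNA cells set at the same floor, they were 2.94-fold lower than control cells, leaving out the counting error of the control libraries. *SLC1A2* (EAAT2), the main glutamate carrier of the brain, had 9 counts over the siRNA libraries and 1 over the control libraries (ratio 9.2, counting interval 1.27 to 403). Without the filter, 1 of these 26 members passed in overexpression cells, 4 in siRNA cells and 4 in the direct comparison. The share of all genes that passed in that fit is not given here, so these counts stand without a background. The other members under the filter include the carriers of dopamine (*SLC6A3*), betaine (*SLC6A12*) and proline (*SLC6A7* and *SLC6A20*), and *SLC3A1*, the second heavy chain, none of which passed.

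There were 10 tested members whose span from start to end overlaps that of a tested gene in the RefSeq annotation. Overlap of exons was not examined, and the strand setting of the counting is not given in the sources used here. Whether such pairs share reads is therefore not known. *SLC36A4* overlaps *DEUP1*, which averaged 0.249 CPM in overexpression cells, 1.03 CPM in siRNA cells and 0.464 CPM in control cells, far under *SLC36A4*. Its log2 fold change in siRNA cells was 1.13. Overexpression and control cells averaged under the filter level of 0.584 CPM, so *DEUP1* entered the test through the siRNA libraries. *SLC6A9* overlaps *CCDC24*, which was lower in both groups (log2 fold changes -0.54 and -0.48). *SLC7A4* overlaps *P2RX6*, which had 0.693 CPM in siRNA cells and 0.639 CPM in control cells and did not pass (log2 fold change 0.11, adjusted p = 0.807). *SLC7A6* overlaps *SLC7A6OS*, which did not pass in either group (log2 fold changes -0.12 and -0.15). *SLC38A9* overlaps *PLPP1*, which averaged 259 CPM in overexpression cells, 245 CPM in siRNA cells and 228 CPM in control cells, far above *SLC38A9*, with log2 fold changes of 0.19 (adjusted p = 0.0129) and 0.11 (adjusted p = 0.122), and its part in the values of *SLC38A9* was not tested.

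Genes that use or sense the carried substrates were described from lists, by the number of tested genes at an adjusted p under 0.05. The counts of each list stand against 29.5% higher and 29.9% lower of all tested genes in siRNA cells, and 23.9% higher and 23.4% lower in overexpression cells. Of 17 genes for the synthesis and use of non-essential amino acids, 14 were lower and 1 was higher in siRNA cells. *PHGDH*, the first enzyme of serine synthesis, averaged 164 ± 9.33 CPM in siRNA cells and 337 ± 11.6 CPM in control cells (log2 fold change -1.04). *ASNS*, which makes asparagine, had 89.4 ± 8.57 CPM in siRNA cells and 182 ± 13.2 CPM in control cells (log2 fold change -1.02), and *PSAT1*, which follows *PHGDH*, a log2 fold change of -0.97. The 1 gene that rose was *CBS*, the first step from homocysteine toward cysteine (log2 fold change 1.28). The median log2 fold change of the list was -0.43 in siRNA cells, against -0.00 over all tested genes. In overexpression cells 5 genes of the list were higher and 6 lower, with *CBS* (log2 fold change -1.30), *PHGDH* (-0.75) and *SHMT2*, which converts serine to glycine in mitochondria (-0.50), among the lower ones.

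Of 20 cytosolic aminoacyl-tRNA synthetases, which charge tRNAs with amino acids, 12 were lower and 1 was higher in siRNA cells. The glycine enzyme *GARS1* (log2 fold change -0.90, adjusted p = 2.19e-11) and the tryptophan enzyme *WARS1* (log2 fold change -0.75, adjusted p = 2.1e-10) were the lowest of them by fold change. The list's median was -0.21, and in overexpression cells 4 were higher and 6 lower, with a median of -0.01. Of 14 genes for the breakdown of branched-chain amino acids, 7 were lower and 1 was higher in siRNA cells. *BCAT1*, the cytosolic enzyme that removes the amino group of leucine, fell in siRNA cells (log2 fold change -1.03) and rose in overexpression cells (log2 fold change 0.72). The largest change of this list in overexpression cells was the decrease of *MCCC1* (log2 fold change -0.73). Of 23 genes of amino acid sensing by mTORC1, 4 were higher and 9 lower in siRNA cells, and 4 were higher and 10 lower in overexpression cells. *RRAGC*, a GTPase of the lysosomal sensing complex, was higher in overexpression cells (90.9 ± 2.92 CPM, log2 fold change 0.61) and lower in siRNA cells (42.1 ± 2.68 CPM, log2 fold change -0.50) than in control cells (59.6 ± 7.34 CPM). *SESN1*, a sestrin of the leucine-sensing family, was higher in siRNA cells (log2 fold change 0.75, adjusted p = 5.39e-06). The largest changes of this list in overexpression cells were decreases, of *LAMTOR5* (log2 fold change -0.86) and *MLST8* (-0.73).

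Of 10 genes of lactate and pyruvate handling, 5 were higher and 3 lower in siRNA cells, and 2 were higher and 4 lower in overexpression cells. The largest changes in siRNA cells were those of *PDK2* (log2 fold change -0.75), *MPC2* (-0.53) and *PDK3* (0.48). *LDHA*, the lactate dehydrogenase chain of glycolytic cells, rose in both groups, at 1666 ± 19.6 CPM in overexpression cells, 1701 ± 157 CPM in siRNA cells and 1244 ± 45.4 CPM in control cells (log2 fold changes 0.42 and 0.45). Among 6 tested partner proteins, *BSG* (basigin), the chaperone of *SLC16A1* and *SLC16A3* at the membrane, was higher in siRNA cells (583 ± 13.1 CPM, against 440 ± 41.4 CPM in control cells, log2 fold change 0.41), and *EMB* (embigin), the partner of *SLC16A7*, was lower (log2 fold change -0.45, adjusted p = 0.0271). The partners counted 3 higher and 2 lower in siRNA cells, and 2 higher and 0 lower in overexpression cells. The partners higher in overexpression cells were *ARL6IP1* (log2 fold change 0.55) and *ARL6IP5* (0.21), which binds the glutamate carrier *SLC1A1*.

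Of 6 tested genes of creatine and taurine metabolism, 2 were higher and 2 lower in siRNA cells, and 0 were higher and 3 lower in overexpression cells. *GATM*, the first enzyme of creatine synthesis, fell to 0.434 ± 0.223 CPM in siRNA cells, against 5.76 ± 0.95 CPM in control cells (log2 fold change -3.71, adjusted p = 2.13e-10). *CDO1*, which starts the path from cysteine to taurine, had 2.53 ± 0.325 CPM in siRNA cells and 0.212 ± 0.133 CPM in control cells (log2 fold change 3.53). It averaged 0.115 CPM in overexpression cells. Control and overexpression cells lay under the filter level of 0.584 CPM. *CDO1* thus entered the test through the siRNA libraries and had to differ there. *CSAD*, the next enzyme of that path, was higher in siRNA cells (log2 fold change 0.64). In overexpression cells *GAMT* (log2 fold change -0.70), *GATM* (-0.66) and *CSAD* (-0.57) were lower. Of 14 other tested carriers of amino acids and peptides, 3 were higher and 5 lower in siRNA cells, and 5 were higher and 3 lower in overexpression cells. They include the left-out *SLC7A2*, among the lower ones in siRNA cells, and *SLC7A11*, among the higher ones in both groups. The rest belong to families not described above. *SLC15A3*, a lysosomal carrier of histidine and small peptides, rose in both groups (log2 fold changes 1.39 in overexpression cells and 2.44 in siRNA cells), and *SLC25A13*, the mitochondrial aspartate and glutamate exchanger, was higher in overexpression cells (0.92) and lower in siRNA cells (-0.61).

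**Figure D4:**
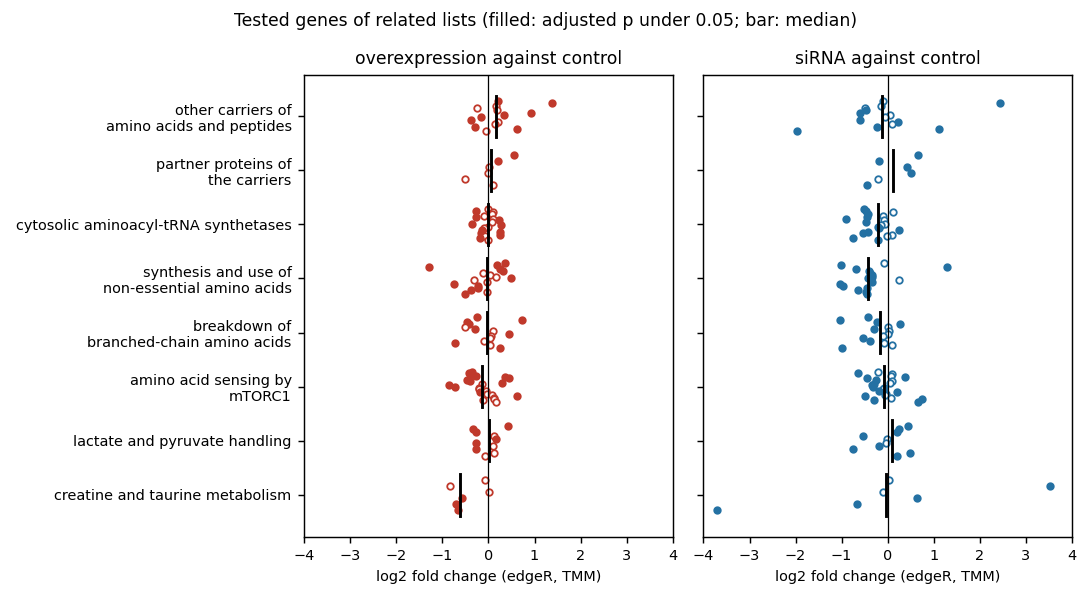
Log2 fold changes of the tested genes of 8 related lists for overexpression against control (left) and siRNA against control (right), with filled points at an adjusted p under 0.05 and a bar at each list's median. In the right panel most points of the lists for non-essential amino acids and aminoacyl-tRNA synthetases lie left of 0, with medians of -0.43 and -0.21.

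Markers of other cell types moved with the groups, and their part in the carriers' differences was not tested. The summed level of 9 smooth muscle and pericyte markers was 13346 to 13430 CPM in overexpression libraries, 1619 to 1804 CPM in siRNA libraries and 11556 to 12341 CPM in control libraries, and 7 of the 9 were lower and 1 was higher in siRNA cells. The 10 preadipocyte and fibroblast markers summed to 141549 to 143942, 82453 to 87552 and 121654 to 123587 CPM in these groups. Of them 6 were higher and 4 lower in siRNA cells, and 2 were higher and 8 lower in overexpression cells. The 2 higher ones were *COL1A1* and *COL1A2*, which averaged 64832 and 36402 CPM in overexpression cells and 48646 and 19440 CPM in control cells. No marker of these 2 lists was at 0 in any group. The 12 adipocyte markers summed to 190 to 197 CPM in overexpression libraries, 396 to 574 CPM in siRNA libraries and 164 to 192 CPM in control libraries; *LPL*, also made by cells other than adipocytes, gave 418 CPM of the siRNA sum, *ADIPOQ* and *LEP* were at 0 in siRNA libraries, *LEP* was at 0 in control libraries, and of 8 tested markers 1 was higher and 5 were lower in siRNA cells. Beside the higher *SLC6A17* and *SLC6A5* stand the neuron and glia markers, of which 11 of 12 were in the table: they summed to 11.4 to 12.8 CPM in overexpression libraries, 25.2 to 27.8 CPM in siRNA libraries and 8.03 to 10.1 CPM in control libraries. *SNAP25*, a protein of vesicle fusion, gave 23.6 CPM of the siRNA sum, against 1.4 CPM in control cells, while *AQP4* was at 0 in every group and *MBP* at 0 in overexpression and siRNA libraries, and of the 4 tested markers 1 was higher and 3 were lower in siRNA cells. Macrophage markers, 17 of 18 in the table, summed to 75.8 to 80 CPM in overexpression libraries, 62.5 to 69 CPM in siRNA libraries and 46.4 to 58 CPM in control libraries; *C1QB*, *CD163* and *PTPRC* were at 0 in siRNA and control libraries, *C1QC*, *MSR1* and *MARCO* in siRNA libraries and *C1QA* and *SIGLEC1* in control libraries. Of the 15 tested, 11 were higher in overexpression cells (23.9% of all tested genes were) and 2 in siRNA cells (29.5% of all tested genes were). *C1QA*, *C1QB*, *C1QC*, *CD163*, *CSF1R*, *SIGLEC1*, *MSR1*, *FCER1G* and *PTPRC* averaged under the filter level of 0.584 CPM in siRNA and control cells. They entered the test through the overexpression libraries and had to be higher there. The 9 endothelial markers summed to 28.8 to 31.6, 21.7 to 22.7 and 34.1 to 35.6 CPM in overexpression, siRNA and control libraries, with *EMCN* at 0 in overexpression and control libraries and *TIE1* at 0 in siRNA libraries, and the 2 tested markers were lower in siRNA cells.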

How the data were processed

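The authors checked reads with FastQC and aligned them with HISAT. They deposited, per gene and library, estimated counts and FPKM values from bulk RNA sequencing on a BGISEQ500 instrument; 5.38% of the estimated counts are not whole numbers. The sources used here do not give the build, annotation, counting tool, strand setting or test. The labels describe removal of ribosomal RNA, the study's methods a protocol with oligo(dT) priming. Each of the 18 value columns was assigned to a sample from its label.

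Estimated counts were rounded and fitted in R 4.3.3 with edgeR 4.0.16 (TMM factors, the default filterByExpr, robust quasi-likelihood F test, all 9 libraries together), and p-values were Benjamini-Hochberg adjusted over 12721 genes. The biological coefficient of variation was 0.0607. A member was called at an adjusted p under 0.05, and the 2-fold count adds an absolute log2 fold change of at least 1. Standard errors were taken as the size of the log2 fold change over the square root of its F. Counting intervals are exact at 95%. Where a group had 0 counts it was set at a floor of 3 counts, and counting error of the other group was left out. Library values were given for members called at 2-fold against control and the 5 with the highest FPKM, and also, chosen after their values were seen, for *SLC38A2*, *SLC6A4*, *SLC6A5* and *SLC7A10*. Genes named from lists were drawn from up to 4 with the largest called change in each comparison, and not all of these are named. Members and lists were chosen with earlier results of these data known. The counts include 1 member whose own values are not reported here. The fit was tested on simulated data. Gene symbols, all 63 of them, were matched to RefSeq for the pig (Sscrofa11.1), used for names and overlaps only. Alternatives were DESeq2 1.42.0, library totals without TMM, no filter or a stricter one, the compared groups only, a replicate block, limma 3.58.1 on log2(FPKM + 1), overexpression libraries summed to 1, and each library left out.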

Additional observations from a re-analysis of the deposited data

How the results depend on the processing

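The counts of members at least 2-fold changed were 1 higher and 0 lower in overexpression cells, 3 higher and 8 lower in siRNA cells, and 9 higher and 4 lower in the direct comparison. The counts under DESeq2, under library totals and under the replicate block were equal to these. For the replicate block they were 1, 0, 3, 8, 9 and 4. There 17 rather than 19 members passed an adjusted p of 0.05 in overexpression cells (*SLC1A5* and *SLC6A9* had adjusted p = 0.0603 and 0.0552). Replicate numbers are not stated to pair the cultures. Deviations from the group mean correlated at -0.11 to 0.178 between same-numbered libraries of different groups, and at -0.209 to 0.149 between differently numbered ones. With 3 libraries per group these values cannot decide whether cultures were paired. On log2(FPKM + 1), limma gave 0 higher in overexpression cells, 4 lower in siRNA cells, and 5 higher and 2 lower in the direct comparison, a scale on which changes of members under a few FPKM shrink. Without a filter there was 1 member lower in overexpression cells, 5 higher and 10 lower in siRNA cells, and 12 higher and 5 lower in the direct comparison; the stricter filter gave 2 higher and 6 lower in siRNA cells and 7 higher and 3 lower in the direct comparison, and with the overexpression libraries summed to 1 there was 1 lower in overexpression cells. The member added on the lower side in overexpression cells was *SLC6A4*. Shares of all genes under these alternatives are not given here, so these counts stand without a background. With libraries left out 1 at a time, the counts were 0 to 1 higher and 0 to 1 lower in overexpression cells, 3 to 5 higher and 7 to 9 lower in siRNA cells, and 8 to 9 higher and 4 to 5 lower in the direct comparison. The lowest value of higher members in overexpression cells came without control replicate 2. The 5 higher members in siRNA cells came without control replicate 1, when *SLC36A4* and *SLC6A5* were added. With a library left out the smallest group is smaller, so the filter asks for its level in fewer libraries, and 38 to 39 members were tested. Where it was added, *SLC6A5* entered through siRNA libraries and had to be higher there. *SLC6A4* entered through control libraries and had to be lower in the other groups.

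None of the named fold changes recomputed under the alternatives changed direction. At an adjusted p under 0.05 alone, 19 of 37 members passed in overexpression cells, against 11 of 39 when the overexpression libraries were summed to 1. *SLC1A5*, *SLC6A9* and *SLC3A2* did not pass there (adjusted p = 0.337, 0.322 and 0.116). The stricter filter left *SLC16A9*, *SLC6A2* and *SLC7A4* untested, and the fit of siRNA and control libraries alone *SLC16A9* and *SLC6A2*. The cause of shifts beyond those of the filter was not tested. There were 16 members with fewer than 20 counts over all libraries, in which only a large difference is detectable at this depth.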
